A study of Mus musculus with 4 samples.

Results

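The 10 immediate early genes Egr1, Egr2, Egr3, Nr4a1, Nr4a2, Arc, Ier2, Btg2, Zfp36 and Dusp1 were compared between Mmp3-positive and Mmp3-negative cells of mouse subcutaneous fat. They were chosen by name, as early response genes that are not AP-1 factors, and are 10 of the 35580 genes to which transcripts were matched. All 10 were among the 14185 genes tested. The cells were from the stromal vascular fraction, what is left of adipose tissue once the adipocytes are removed, of wild-type (WT) C57BL/6 mice, and both groups shared this genotype, strain and tissue. Each group had 2 libraries, numbered 1 and 2, and age and treatment are not stated in the labels. Whether the libraries were from separate animals was not stated either, so a p-value here measures only the spread between these libraries, which may be technical. The labels gave a reagent code for the separation, and the extraction kit is one sold for fixed, paraffin-embedded tissue.

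Immediate early genes are switched on within minutes of a stimulus without new protein synthesis, through transcription factors already present in the cell, among them serum response factor and CREB. Many of their products are transcription factors, and others shut the response off again by dephosphorylating MAP kinases or by destabilising mRNA. In dissected tissue they are also known to be induced while cells are being dissociated and sorted.

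The libraries held 17693755 to 20286221 estimated counts. Mmp3 itself, which defined the groups, stood at 106 and 131 CPM (counts scaled to library size and between libraries by TMM) in Mmp3-negative replicates 1 and 2 and at 4161 and 3409 CPM in Mmp3-positive replicates 1 and 2, as the labels have it. Fibroblast genes that mark the stroma, such as Pdgfra and Col1a1, were abundant in all 4 libraries, at 20690 to 36382 CPM summed over 9 markers. Of all genes tested, 0.0211% passed an adjusted p of 0.05 in either direction by edgeR's quasi-likelihood test (3 of 14185).

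Values of a pair are given with replicate 1 first. None of the 10 genes passed that threshold, so the differences below are given as values. In 6 of them, Arc, Nr4a2, Nr4a1, Zfp36, Dusp1 and Egr1, both Mmp3-positive libraries lay below both Mmp3-negative libraries, a pattern shown by 17.3% of all genes tested. In 0 of the 10 did both Mmp3-positive libraries lie above, against 22.5% of all genes, and in the other 4, Egr2, Egr3, Ier2 and Btg2, the groups overlapped. The median log2 fold change (Mmp3-positive over Mmp3-negative) was -0.60 over the 10 genes and 0.019 over all genes tested. An unadjusted p below 0.05 was reached by 5 of the 10 in edgeR, and by 8.87% of all genes. DESeq2's Wald test, run as an alternative, called 6 of the 10 lower, the same 6 genes, where it called 4.18% of all genes lower and 5.46% higher. In bulk RNA, fewer cells of a type and less RNA per cell cannot be told apart.

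**Figure D1:**
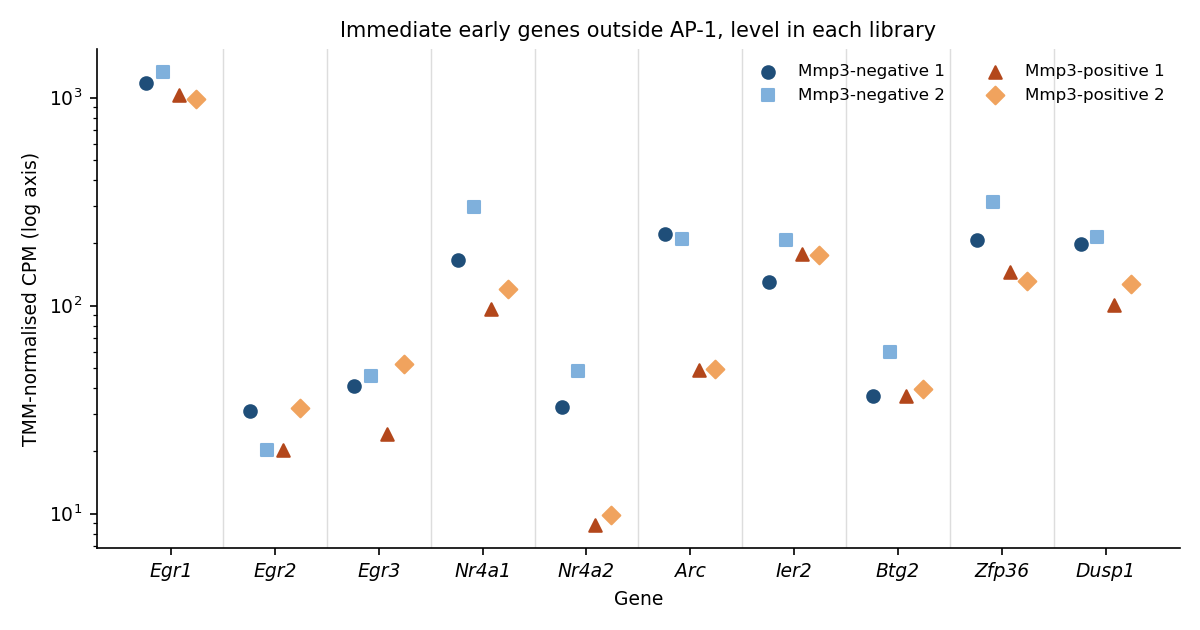
Level of each of the 10 genes in each of the 4 libraries, as TMM-normalised CPM on a log axis, with 1 point a library. The Mmp3-positive points (orange) lie below both Mmp3-negative points (blue) for Egr1, Nr4a1, Nr4a2, Arc, Zfp36 and Dusp1, and the replicates of Arc lie close together beside its gap.

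Arc encodes a protein best known at neuronal synapses, where it moves glutamate receptors off the membrane, and its transcription is a classic marker of recent stimulation. The gene lies on chromosome 15 of GRCm38 from 74669083 to 74672570, on the minus strand. It stood at 221 CPM in Mmp3-negative replicate 1 and 210 CPM in replicate 2, and at 48.8 CPM in Mmp3-positive replicate 1 and 49.5 CPM in replicate 2. The 2 libraries of each group were nearly equal and the groups far apart. The means were 215 ± 7.88 CPM and 49.2 ± 0.531 CPM (SD, n = 2), a level 4.38-fold lower in Mmp3-positive cells. The log2 fold change was -2.13 with a standard error of 0.21, and Arc had the fifth smallest p of all genes tested, with an adjusted p of 0.178 by edgeR's quasi-likelihood test. It was called lower without a count filter (edgeR adjusted p = 0.00227) and with DESeq2. It was not called with an offset for transcript length (edgeR adjusted p = 0.528) or with limma on deposited or rescaled TPM (limma adjusted p = 0.55 and 0.461). Without Mmp3-negative replicate 1 or 2 its log2 fold change was -2.10 or -2.17. Without Mmp3-positive replicate 1 or 2 it was -2.12 or -2.15. Its log2 fold change stayed between -2.18 and -1.79 over 11 alternative settings, with adjusted p from 5.35e-39 to 0.55. The listed coding transcripts of Arc, of 3055 and 3054 bases, differ by a base in length, and how kallisto divided reads between them carries no information on isoforms.

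The NR4A proteins are orphan nuclear receptors that act without a classical ligand, so their activity follows how much of them is made. Nr4a1 (Nur77) stood at 165 and 299 CPM in the Mmp3-negative against 96.2 and 120.5 CPM in the Mmp3-positive pair. The groups did not overlap, but the Mmp3-negative libraries were themselves far apart. Its log2 fold change was -1.10 with a standard error of 0.33 (edgeR adjusted p = 0.48). Without Mmp3-negative replicate 1 it was -1.47, and without replicate 2 it was -0.61.

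Nr4a2 (Nurr1), known from dopamine neurons and also induced by inflammatory signals in stromal cells and macrophages, had 605 and 838 estimated counts in Mmp3-negative against 167 and 193 in Mmp3-positive libraries. These are 32.6 and 48.3 CPM against 8.79 and 9.83 CPM. This was a log2 fold change of -2.12, about as large as that of Arc, but the standard error was 0.56 (edgeR adjusted p = 0.48). Its counts were held by 2 of its 6 listed transcripts, a coding one of 2400 bases and a non-coding processed transcript of 1099 bases. The non-coding one took 84.8% of the gene's counts in Mmp3-negative replicate 1 but 25.6% in replicate 2, and 35.3% and 41.4% in Mmp3-positive cells. On the coding transcript alone the libraries held 92.0, 623, 108 and 113 estimated counts in the same order. The coding transcript was thus high in Mmp3-negative replicate 2 only, and the separation of the groups at gene level in replicate 1 came from the non-coding one. The shared exons make this division an estimate.

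The remaining NR4A gene, Nr4a3, was looked at after these values were seen. It stood at 4.26 and 38.9 CPM in the Mmp3-negative against 6.11 and 4.33 CPM in the Mmp3-positive pair, so it too was high in Mmp3-negative replicate 2 alone. Its log2 fold change of -2.05 (edgeR adjusted p = 0.836) was 0.29 without that library.

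Dusp1 and Zfp36 are feedback genes that end the response. Dusp1 encodes a nuclear phosphatase that inactivates p38, JNK and ERK kinases. It stood at 197 and 215 CPM in the Mmp3-negative against 100.2 and 127 CPM in the Mmp3-positive pair, so the groups did not overlap. The log2 fold change was -0.86 with a standard error of 0.21 (edgeR adjusted p = 0.48). Retained-intron transcripts held 44.98%, 43.4%, 44.7% and 43.1% of its counts in the 4 libraries in the same order, and so nearly the same share in both groups.

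Zfp36 encodes tristetraprolin, which binds AU-rich elements and speeds the decay of cytokine mRNAs. It stood at 207 and 313 CPM in the Mmp3-negative against 145 and 132 CPM in the Mmp3-positive pair. Its log2 fold change was -0.91 with a standard error of 0.25 (edgeR adjusted p = 0.48). As for Nr4a1, Mmp3-negative replicate 2 was the highest library. Without Mmp3-negative replicate 1 the change was -1.19, and without replicate 2 it was -0.58.

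**Figure D2:**
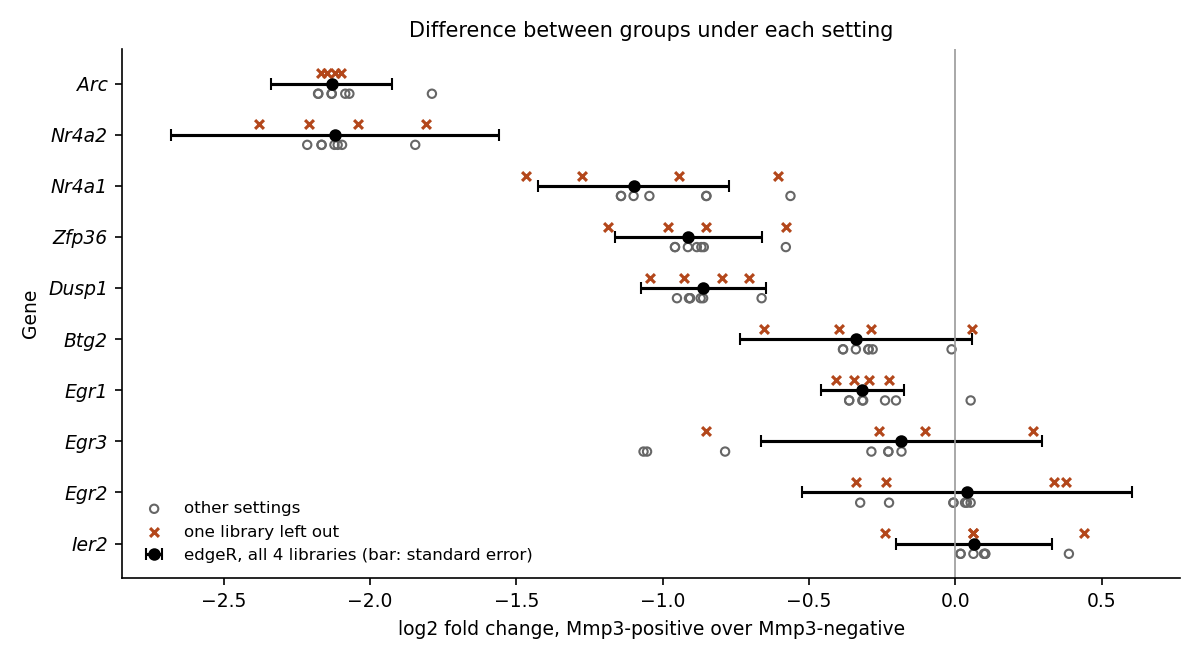
The log2 fold change of each gene, Mmp3-positive over Mmp3-negative, with its standard error (black, edgeR with all 4 libraries), with 1 library left out (crosses) and under the other settings (open circles). The points of Arc lie between -2.18 and -1.79, while those of Egr1, Egr2, Egr3, Ier2 and Btg2 lie on both sides of 0.

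The EGR proteins are zinc finger transcription factors that bind GC-rich sites, and Egr1 is their most widely expressed member. Egr1 stood at 1179 and 1330 CPM in the Mmp3-negative against 1027 and 987 CPM in the Mmp3-positive pair. The groups did not overlap, but the gap was small, with a log2 fold change of -0.32 and a standard error of 0.14 (edgeR adjusted p = 0.618). It was by far the most abundant of the 10 genes and alone held 48.4% to 61.0% of their summed counts in each library. The longer of its 2 coding transcripts, of 4484 bases, held 34.0% and 17.3% of its counts in Mmp3-negative against 14.0% and 9.39% in Mmp3-positive libraries. With limma on log2(TPM + 1) the change of Egr1 was 0.053.

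Egr2, known from Schwann cell myelination and also expressed in lymphocytes and adipocyte precursors, stood at 31.0 and 20.1 CPM in the Mmp3-negative against 20.3 and 32.3 CPM in the Mmp3-positive pair. Each group had a high and a low library, and the groups overlapped fully. Its log2 fold change of 0.039 had a standard error of 0.56, and it was below 0 with DESeq2's size factors (-0.0062).

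Egr3, which acts downstream of growth factor and antigen receptor signals, stood at 41.2 and 45.7 CPM in the Mmp3-negative against 24.2 and 52.2 CPM in the Mmp3-positive pair. The Mmp3-positive libraries lay on either side of the Mmp3-negative pair. The log2 fold change was -0.18 (standard error 0.48), and it was 0.27 without Mmp3-positive replicate 1. It was -1.05 with an offset for transcript length. A short non-coding transcript of 489 bases, Egr3-203, had 144 and 190 estimated counts in Mmp3-negative against 14.8 and 0 in Mmp3-positive libraries, and a count on so short a transcript weighs heavily once length is taken into account. The coding transcript Egr3-201 had 4.15, 278, 265 and 426 estimated counts in the same order of libraries, lowest in Mmp3-negative replicate 1. The fourth EGR gene, Egr4, had counts in Mmp3-positive replicate 1 only, at 2.05 CPM.

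**Figure D3:**
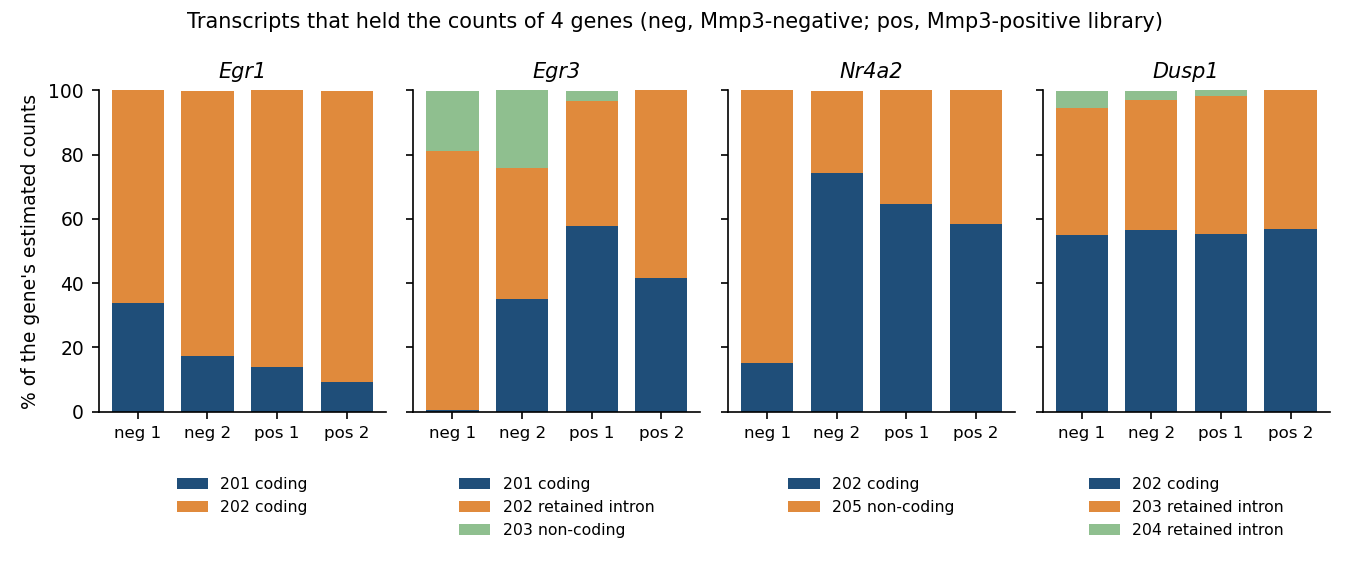
Share of the estimated counts of Egr1, Egr3, Nr4a2 and Dusp1 held by each listed transcript in each library (stacked bars, percent of the gene). The shares of Dusp1 are alike in all 4 libraries, while Mmp3-negative replicate 1 stands apart in Nr4a2 and Egr3, where coding transcripts hold 15.2% and 0.544%.

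Ier2 and Btg2 complete the 10 genes. Ier2, a nuclear protein whose biochemical role is less well known, is a gene of a single exon. It stood at 130 and 207 CPM in the Mmp3-negative against 177 and 176 CPM in the Mmp3-positive pair, and both Mmp3-positive libraries fell between the Mmp3-negative ones. This was a log2 fold change of 0.063 with a standard error of 0.27. Btg2, an antiproliferative protein that recruits the CCR4-NOT deadenylase to mRNA, stood at 36.7 and 59.8 CPM in the Mmp3-negative against 36.7 and 39.6 CPM in the Mmp3-positive pair. Of its 4 libraries only Mmp3-negative replicate 2 stood apart, and the log2 fold change of -0.34 (standard error 0.40) became 0.058 without that library.

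Several of the 10 genes, Nr4a1, Ier2, Btg2 and Zfp36 among them, differed more between the Mmp3-negative than between the Mmp3-positive libraries. The median absolute log2 difference between replicates was 0.583 over the 10 genes in the Mmp3-negative pair and 0.148 in the Mmp3-positive pair. Over tested genes with an average log2 CPM of at least 5 the same medians were 0.42 and 0.251. Over all tested genes above 0 in each library they were 0.648 and 0.404, so the Mmp3-negative pair differed more there too. Summed, the 10 genes stood at 2241 and 2747 CPM against 1683 and 1725 CPM. Without Egr1 the sums were 1062 and 1417 against 656 and 738 CPM.

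Per transcript length, as TPM brought to a common scale between libraries, Egr1 was the most abundant gene in both groups, at 429 ± 55.8 and 362 ± 4.1 TPM (SD, n = 2). In Mmp3-negative cells Ier2 (134 ± 43.5 TPM), Nr4a1 (125 ± 50.1), Dusp1 (122 ± 3.38) and Zfp36 (117 ± 31.1) followed, and these 4 levels did not differ beyond their spread. Arc was sixth at 79.9 ± 2.76 TPM, and its spread overlapped that of Nr4a1. It stood ahead of Egr3 (45.5 ± 13.7), Nr4a2 (32.9 ± 1.9), Btg2 (20.1 ± 6.84) and Egr2 (14.2 ± 9.13). The spreads of Egr3 and Nr4a2, and of Btg2 and Egr2, overlapped. In Mmp3-positive cells Ier2 stood at 139 ± 0.678 TPM, clear of Nr4a1 (67.2 ± 19.4), Dusp1 (63.2 ± 9.46) and Zfp36 (62.5 ± 3.45), which overlapped each other. The order then ran from Egr3 (21.3 ± 7.01 TPM) and Arc (18.2 ± 0.299), which overlapped, to Btg2 (15.9 ± 0.921) and Egr2 (10.9 ± 3), with Nr4a2 lowest at 6.87 ± 0.861 TPM. The spread of Egr3 also overlapped that of Btg2. Egr1 came first in all 4 libraries, and Nr4a2 moved from position 8 to position 10. The non-coding Egr3-203 held 72.8% and 67.0% of Egr3's TPM in Mmp3-negative against 15.6% and 0% in Mmp3-positive libraries. For Nr4a2 the non-coding transcript held 93.1% and 45.3% against 56.6% and 62.9%. The positions of these genes thus depend in part on how kallisto divided reads.

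The promoters of the 10 genes were searched for letters bound by the factors named above, since the genes are known to be induced together. RefSeq windows of GRCm38.p6, from 250 bases before to 50 bases after a start site, were given for 6 of the genes, Btg2, Dusp1, Egr2, Nr4a1, Nr4a2 and Zfp36. The full CREB site TGACGTCA was in the windows of 2 of these genes, Dusp1 and Btg2, against 2.03% of 27025 genes with windows. Its core TGACG, which the full site contains, was in 5 of the 6 on either strand, all but Zfp36, against 23.0% of genes. The CArG box of serum response factor was in 2, Zfp36 and Egr2, against 1.81% of genes. The EGR site GCGTGGGCG was in 0 of the 6 and in 0.707% of genes. A match is only a run of letters, and the data hold no measurement of binding. The 10 windows of these genes had a GC content of 56.0% to 81.7%, all above the median of 52.7% over 32851 windows.

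Stretches before the start sites that hold matches are shown for the 4 genes with windows whose groups did not overlap. Those of Btg2 and Egr2, whose groups overlapped, are shown too. For Egr2 a single window is shown, and the window from 67537316 held a different CArG box. The stretches run 5′ to 3′ on the strand of the gene and leave out annotated exons. For Zfp36, where an exon of a longer transcript covers the window, only the CArG box with its flanks is given. Capitals mark TGACG or TGACGTCA, read as CGTCA where the match is on the other strand, and the CArG box.
Nr4a1 (chr15:101266596-101266845, plus strand): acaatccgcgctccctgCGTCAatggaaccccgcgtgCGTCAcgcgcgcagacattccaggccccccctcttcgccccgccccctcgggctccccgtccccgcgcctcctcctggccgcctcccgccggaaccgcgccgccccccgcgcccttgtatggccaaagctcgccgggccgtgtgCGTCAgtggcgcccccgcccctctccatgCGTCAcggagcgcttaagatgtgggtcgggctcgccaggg
Nr4a2 (chr2:57124004-57124253, minus strand): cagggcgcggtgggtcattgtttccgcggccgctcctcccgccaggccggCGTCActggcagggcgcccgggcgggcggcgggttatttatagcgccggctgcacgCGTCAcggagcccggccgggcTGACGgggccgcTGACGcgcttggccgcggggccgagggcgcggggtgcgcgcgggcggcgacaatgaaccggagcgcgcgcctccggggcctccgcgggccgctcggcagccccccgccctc
Dusp1 (chr17:26508520-26508722, minus strand): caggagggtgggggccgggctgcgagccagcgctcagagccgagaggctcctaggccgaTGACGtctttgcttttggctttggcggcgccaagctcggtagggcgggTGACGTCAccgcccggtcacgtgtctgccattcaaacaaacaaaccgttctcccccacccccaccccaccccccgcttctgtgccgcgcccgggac
Zfp36 (chr7:28379267-28379296, minus strand): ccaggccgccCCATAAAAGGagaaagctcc
Btg2 (chr1:134079156-134079405, minus strand): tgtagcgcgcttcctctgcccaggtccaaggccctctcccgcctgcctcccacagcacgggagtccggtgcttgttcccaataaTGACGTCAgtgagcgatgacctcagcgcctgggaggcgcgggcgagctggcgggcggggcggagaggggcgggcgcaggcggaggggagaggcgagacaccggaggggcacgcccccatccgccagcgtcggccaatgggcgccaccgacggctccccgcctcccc
Egr2 (chr10:67537680-67537868, plus strand): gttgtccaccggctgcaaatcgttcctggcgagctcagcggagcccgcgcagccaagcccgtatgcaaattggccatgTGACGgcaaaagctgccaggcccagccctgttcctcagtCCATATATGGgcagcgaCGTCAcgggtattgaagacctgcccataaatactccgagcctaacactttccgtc

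Counted from the start site, with minus for bases before it, the core TGACG began at 4 positions in Nr4a1 (-233, -213, -69 and -40) and at 4 in Nr4a2 (-200, -144, -123 and -111). Dusp1 had the full site at -143 and a further core at -191, and Btg2 had the full site at -166. The CArG box of Zfp36 began at -58. Of the pair with the full site, the log2 fold change was -0.86 (standard error 0.21) in Dusp1 and -0.34 (0.40) in Btg2. Of the pair with a CArG box, it was -0.91 (0.25) in Zfp36 and 0.039 (0.56) in Egr2. The groups did not overlap in Dusp1 and Zfp36 and overlapped in Btg2 and Egr2. A link between the letters and the values was not tested.

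Most of the 10 genes are short. Their median genomic span was 5.29 kb, against 24.0 kb over 13385 tested protein-coding genes, and the most exons of any coding transcript had a median of 3, against 9. Ier2 spans 1.52 kb in a single exon, Zfp36 3.47 kb, Arc 3.49 kb and Btg2 3.95 kb. Dusp1, at 56.5 kb, Nr4a1, at 20.5 kb, and Nr4a2, at 17.2 kb, had longer spans. A span covers the whole annotated gene, including parts that hold no counts. Dusp1 is annotated from 26505590 to 26562128, but its promoter window ended at 26508722, well inside that span. Its counts lay on transcripts of 839 to 2313 bases.

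Other early response genes were taken from lists and gave the following values, replicate 1 first and Mmp3-negative before Mmp3-positive. For the counts in each list, both Mmp3-positive libraries lay below in 17.3% of all genes tested and above in 22.5%. An unadjusted p below 0.05 was reached by 8.87% of all genes in edgeR, and DESeq2 called 4.18% lower and 5.46% higher. Among 8 AP-1 factors, whose FOS and JUN proteins form dimers on DNA, 0 were called by edgeR, 6 were lower at an unadjusted p below 0.05 and DESeq2 called 6 lower. In 7 of the 8 both Mmp3-positive libraries lay below, all but Fosl1, and the median log2 fold change was -1.40, against -0.60 over the 10 genes. Jun stood at 441 and 420 CPM against 146 and 181 CPM, a log2 fold change of -1.39. The values were -0.70 for Fosl2, -0.23 for Junb and 0.31 for Fosl1. Outside the 4 most abundant factors they were -3.125 for Fosb, -2.30 for Atf3, -1.91 for Fos and -1.42 for Jund. Those of Fosb and Atf3 were thus larger than that of Arc (-2.13).

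Of 38 further early response genes, 34 were tested and 0 were called by edgeR, with 6 lower and 2 higher at an unadjusted p below 0.05 and 7 lower and 2 higher by DESeq2. Both Mmp3-positive libraries lay below in 12 and above in 4, and the median was -0.37. The 6 lower at an unadjusted p below 0.05, picked out by their values, were Gadd45b (-1.54), Sik1 (-1.18), Klf4 (-1.03), Irf1 (-0.96), Per1 (-0.81) and Plk2 (-0.40). Gadd45b, a stress-induced signalling protein, stood at 91.6 and 120 CPM against 41.2 and 31.5 CPM. The 4 that lay above were Ccn1, Errfi1, Klf10 and Trib1, of which the last 2 were picked out after their values were seen. Ccn1, a secreted matrix protein, stood at 981 and 1014 CPM against 1302 and 1248 CPM (log2 fold change 0.35). Errfi1, an inhibitor of the EGF receptor, had 0.32, the repressor Klf10 0.62, and the pseudokinase Trib1 0.82. The growth regulator Myc stood at 416 and 604 CPM against 579 and 673 CPM, and the cytokine inhibitor Socs3 at 534 and 338 CPM against 391 and 359 CPM, and in both the groups overlapped.

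Relatives and feedback partners of the 10 genes had a median of -0.090 over 18 tested of 19, with 0 called by edgeR, 1 lower and 1 higher at an unadjusted p below 0.05, and 2 lower and 1 higher by DESeq2. Zfp36l1, a paralogue of Zfp36 that binds the same AU-rich elements, stood at 180 and 206 CPM against 118 and 82.8 CPM (log2 fold change -0.94). The change depended on the scaling, at -0.11 with an offset for transcript length, -0.19 with limma on rescaled TPM and 0.10 with limma on deposited TPM. The other paralogue, Zfp36l2, had 0.059, the EGR co-repressor Nab2 0.084 and the ERK pathway inhibitor Spry2 0.046. The higher gene, picked out by its values, was Dusp5, a relative of Dusp1. It stood at 36.25 and 41.2 CPM against 120.8 and 84.2 CPM (log2 fold change 1.40, edgeR adjusted p = 0.48).

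The kinases and transcription factors upstream of these genes had a median of 0.098 over 20, with 0 called by edgeR, 0 at an unadjusted p below 0.05 and 0 by DESeq2. Serum response factor (Srf) stood at 139 and 97.2 CPM against 112 and 83.4 CPM, and its co-activator Mrtfa had a log2 fold change of -0.096. The kinases Map2k1 and Map2k2, which activate ERK, had 0.10 and -0.27. These are mRNA levels, and phosphorylation, by which most of these proteins are regulated, was not measured.

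Among 9 mRNAs known to be bound by tristetraprolin, 8 were tested and 0 were called by edgeR, with 1 lower and 1 higher at an unadjusted p below 0.05 and by DESeq2. The median log2 fold change was 0.34, and it was the same with the gene at 0 counts in both Mmp3-positive libraries, Tnf, set at its bound. Tnf stood at 16.1 and 6.00 CPM in Mmp3-negative libraries. Ccl7, a monocyte-attracting chemokine, stood at 82.3 and 91.5 CPM against 198 and 162 CPM (log2 fold change 1.05). The chemokines Ccl2 and Cxcl1 had 0.51 and 0.18 and the cytokine Lif 0.63, and in these 3 the groups overlapped. With 1 library left out, Ccl2 ranged from 0.059 to 1.06, Cxcl1 from -0.45 to 0.84 and Lif from 0.093 to 1.49, and Lif was 1.51 with the length offset.

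Of 11 heat shock genes, 2 were called lower by edgeR, Hspa1a and Hspa1b, with 4 lower at an unadjusted p below 0.05 and 5 lower by DESeq2. Hspa1a stood at 2665 and 2402 CPM against 355 and 408 CPM, a log2 fold change of -2.73 (edgeR adjusted p = 0.0251 and, without Mmp3-positive replicate 1 or 2, 0.0516 or 0.0655). Hspa1b, a near-identical copy between which kallisto's split of reads is uncertain, had -2.43 (edgeR adjusted p = 0.0273, and 0.0759 or 0.118 without those libraries). The constitutive chaperone Hspa8 had 0.14 and Hsp90aa1 -0.35, and the list's median was -0.16. In 6 of the 11 both Mmp3-positive libraries lay below, as in 6 of the 10 early genes, and a part of cell stress in these values was not tested.

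**Figure D4:**
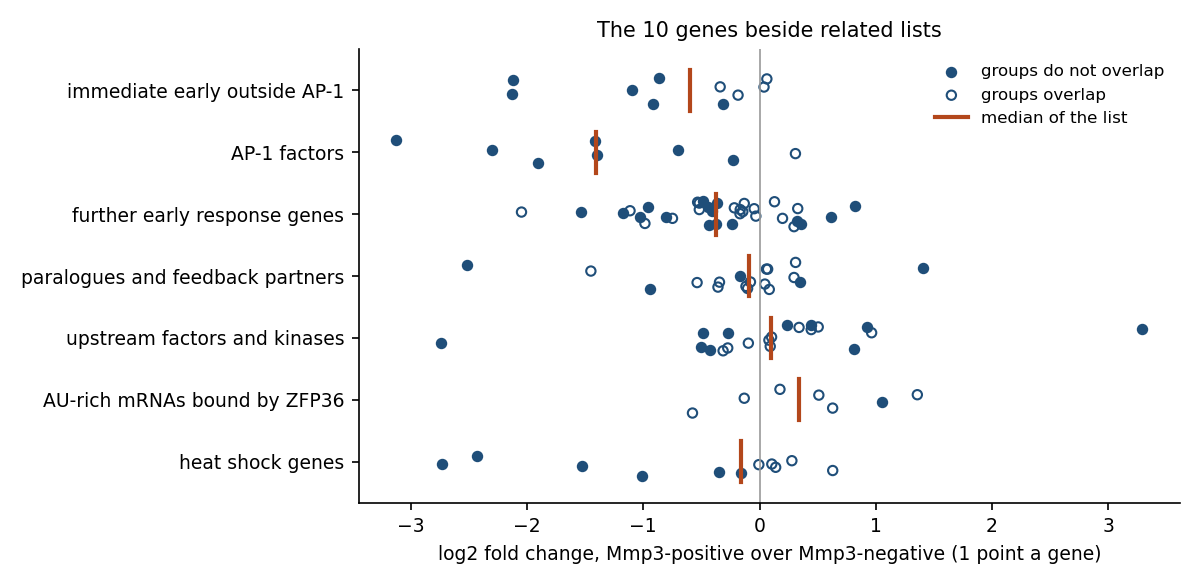
The log2 fold change of each tested gene, Mmp3-positive over Mmp3-negative, for the 10 genes and the 6 related lists, with filled points where the groups did not overlap and a bar at each list's median; Tnf, at 0 counts in both Mmp3-positive libraries, is not drawn. The medians run from -1.40 in AP-1 factors and -0.60 in the 10 genes to 0.098 upstream and 0.34 in mRNAs bound by tristetraprolin.

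Markers of other cells of the fraction differed between the same libraries. Of all genes tested, 17.3% were lower and 22.5% higher in both Mmp3-positive libraries. Mural markers summed to 805 and 731 CPM against 106 and 104 CPM, with 7 of 8 tested markers lower in both Mmp3-positive libraries. The other, Rgs5, was scarce in all 4 libraries, at 0 and 4.09 against 1.58 and 3.92 CPM. None of these markers was at 0 in both libraries of a group. Macrophage markers summed to 247 and 117 against 30.6 and 28.5 CPM, with 5 of 7 lower, Adgre1 at 0 in both Mmp3-positive and Mrc1 at 0 in both Mmp3-negative libraries. Dendritic markers summed to 177 and 70.3 against 11.9 and 19.9 CPM, with 4 of 5 lower, H2-Eb1 at 0 in both Mmp3-positive libraries and the defining marker Flt3 at 0 in all 4. The 4 lower ones were Cd74 and 3 MHC class II genes, which macrophages also express. Endothelial markers summed to 394 and 260 against 222 and 210.0 CPM, with 3 of 6 lower and Emcn at 0 in both Mmp3-negative libraries. Stromal markers summed to 20690 and 29952 against 28687 and 36382 CPM, with 6 of 9 higher. The part of these cells in the values of the 10 genes was not tested.

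Lymphocyte markers (1.27 to 8.36 CPM) and mesothelial markers (0.701 to 22.1 CPM) were scarce in all 4 libraries. Mast cell markers (Kit, Cpa3, Mcpt4 and Cma1) were at 0 in all 4 libraries. The 5 neuronal markers were scarce too, and summed to 17.5 and 16.5 against 4.9 and 2.85 CPM. Of the 3 tested, 2 were lower in both Mmp3-positive libraries. In Camk2a, at 2.05 and 4.44 against 2.37 and 0 CPM, the groups overlapped. The 2 lower ones were Rbfox3, at 5.72 and 9.17 CPM against 0 in both, and Tubb3, at 9.77 and 2.88 against 2.53 and 0.815 CPM. Syt1 was at 0 in all 4 libraries and Snap25 in both Mmp3-negative ones, and the part of neuronal RNA in the values of Arc was not tested.

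The genes outside the list whose pattern over the 4 libraries was closest to the median pattern of the 10 genes were Wdtc1, Exoc3, Spns1, Zfp444 and Itpr1. Likeness was the root mean square difference of log2 CPM centred over libraries, among 5291 genes with an average log2 CPM of at least 5, and it ran from 0.048 in Wdtc1 to 0.072 in Itpr1. The pattern itself was 0.12 and 0.50 against -0.49 and -0.23. Itpr1, an intracellular calcium channel, stood at 142 and 172 CPM against 98.2 and 107 CPM. The log2 fold changes of these 5 genes lay between -0.72 and -0.59, with edgeR adjusted p from 0.48 to 0.835. With the length offset they spread from -1.91 in Itpr1 and -1.22 in Wdtc1 to 0.21 in Exoc3.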

How the data were processed

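RNA from 2 Mmp3-negative and 2 Mmp3-positive libraries of mouse stromal vascular cells was sequenced after ribosomal RNA depletion, with strand-specific libraries, per the labels' protocols. The authors quantified reads per transcript with kallisto 0.45.0 on GRCm38, per the submitters' processing notes, and deposited estimated counts, TPM values and effective lengths, per the file headers. How reads were trimmed and which strand setting and transcript set were used is not given in the sources used here. When assigning reads, kallisto divides reads among transcripts that share sequence, so transcript values are estimates.

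Transcripts were matched to GENCODE M21 by identifier, and unmatched ones, with 0.729% to 2.08% of counts, were left out. Estimated counts were summed per gene, rounded, filtered by filterByExpr (minimum count 10), scaled by TMM and tested across all genes with edgeR 4.0.16 (R 4.3.3; quasi-likelihood, two-sided, no covariate, Benjamini-Hochberg, threshold 0.05, 2 residual degrees of freedom). A standard error is the log2 fold change over the root of F. The scripts were tested on simulated data. In counts simulated with the spread (dispersion) of these data, edgeR's test recovered 21% of 4-fold and 48% of 16-fold changes. It also made 6 calls among unchanged genes. With 0.1 times that dispersion it recovered 75% and 97%, with 11 such calls. A 4-fold change could thus go uncalled here. TPM values were compared between genes after division by median-of-ratios factors, since the 2 genes with the highest deposited TPM held 33.2% of Mmp3-negative replicate 1 and 9.6% to 15.4% of the other libraries. Alternatives were DESeq2 size factors, no filter, the DESeq2 1.42.0 Wald test, a replicate block, a length offset, limma 3.58.1 on log2(TPM + 1), the same after rescaling, and leaving out each library. Of each related list, genes past the threshold and otherwise the 4 most abundant were named, and further genes where the text says so. The 10 genes, the lists and the motifs were chosen with earlier results of these data known, so none is independent evidence.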

Additional observations from a re-analysis of the deposited data

How the results depend on the processing

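The limma fit on rescaled TPM was chosen after seeing the data. With 2 libraries a group, changes smaller than the spread within a pair could not be told from it. Causes of the differences below were not tested, except that leaving out a library leaves fewer samples; a group's remaining library is then taken to vary as the other group does. The median log2 fold change of the 10 genes kept its direction in all 11 alternatives, from -0.86 with rescaled TPM to -0.41 without Mmp3-negative replicate 2.

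Of the 10 genes, 0 were higher under any alternative. Lower were 1 with no count filter (Arc), 6 with DESeq2's Wald test, and 0 to 3 on leaving out a library, with 3 (Arc, Nr4a1 and Zfp36) without Mmp3-negative replicate 1 and 1 (Arc) without its replicate 2. Of all genes, edgeR called 4 higher and 23 lower with no filter, while DESeq2's Wald test called 775 and 593. A length offset left 1 and 0, limma on log2(TPM + 1) 0 and 0, and limma after rescaling 0 and 0 (1064 and 1284 genes at an unadjusted p below 0.05). With a library left out, between 1 and 237 genes were higher and between 1 and 116 lower, the most without Mmp3-negative replicate 2. A fit with the set number as replicate block called 1 higher, 4 lower and 0 of the 10 genes. The same-numbered libraries share only a number in the labels, and the correlation of their deviations was 0.026.

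Directions that turned were of values that had not passed in edgeR with all 4 libraries, though DESeq2's Wald test called Egr1 (adjusted p = 0.0158), Zfp36l1 (0.00115) and Hsp90aa1 (0.00278) lower. With limma on log2(TPM + 1), which moved the median of all genes to 0.29, Egr1 was 0.053, Junb 0.080, Zfp36l1 0.10, Hsp90aa1 0.084, Map2k2 0.65, Mrtfa 0.54 and Exoc3 0.37. After rescaling, Egr2 was -0.23, Nab2 -0.27, Klf10 -0.0038, Map2k2 0.36, Mrtfa 0.25 and Exoc3 0.087. With the length offset, Egr2 was -0.32, Nab2 -0.21, Map2k2 0.41, Mrtfa 0.29 and Exoc3 0.21. Egr2 was -0.0062 with DESeq2 size factors and -0.0063 with its Wald test. Leaving out a library gave ranges of -0.34 to 0.38 for Egr2, -0.85 to 0.27 for Egr3, -0.24 to 0.44 for Ier2, -0.65 to 0.058 for Btg2, -2.90 to 0.29 for Nr4a3, -0.11 to 0.89 for Fosl1, -0.51 to 0.15 for Socs3, -0.17 to 0.33 for Zfp36l2, -0.25 to 0.41 for Spry2, -0.32 to 0.40 for Nab2, -0.086 to 0.27 for Map2k1, -0.42 to 0.16 for Mrtfa, -0.51 to 0.0030 for Srf, -0.45 to 0.84 for Cxcl1 and -0.0034 to 0.29 for Hspa8.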
